A study of Mus musculus with 8 samples.

Results

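Genes for collagen chains, laminin chains and integrin subunits were followed in mouse embryonic stem cells with and without leukemia inhibitory factor (LIF), in wild-type J1 cells and in cells labelled Rex-1 knockout (Rex-1 is the zinc finger protein of the gene Zfp42). The genes were chosen by symbol and by signal. Of the 18193 genes with a probe set assigned to a single symbol, 78 had a collagen, laminin or integrin symbol. The 50 whose best probe set, the one of highest mean, averaged a log2 signal of at least 6 over the 8 arrays were kept, among 13429 genes above that floor. They were 29 of 42 collagen, 6 of 10 laminin, 11 of 16 integrin alpha and 4 of 10 integrin beta genes. Because signal chose them, their mean levels are described and not tested. Members just above the floor were Itga4 at 6.01, Itga10 at 6.04, Col6a4 at 6.05 and Itgb2 at 6.07. Genes just below it were Itga7 at 5.996, Itgb4 at 5.98, Itgax at 5.97, Itgb2l at 5.96 and Lamb3 at 5.94.

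The 4 groups were J1 cells with LIF, J1 cells without LIF, Rex-1-/- cells with LIF and Rex-1-/- cells without LIF, each with 2 arrays called here the first and the second. All were grown on gelatin in serum medium, and 1 extraction text, shared by all arrays, gives 12 hours without LIF. Every array has J1 as its source label, and the sources used here do not say how many knockout clones there were. For knockout cells without LIF, titles and treatment text say that LIF was absent although their growth text speaks of adding it, and the former were followed. The 2 arrays of a group are biological replicates per the series text, and their titles differ by a letter r whose meaning is not stated. A p-value here sets a difference against the spread between such arrays. In fits without the letter as a term, that spread includes any shift between first and second arrays.

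Laminins are heterotrimers of 1 alpha, 1 beta and 1 gamma chain, and with the network of type IV collagen they form the basement membrane. Fibrillar collagens such as types I, III and V give connective tissue its strength. Integrins are cell surface receptors of 1 alpha and 1 beta subunit that bind these proteins and link them to actin. Mouse embryonic stem cells make laminin and type IV collagen themselves, and basement membrane assembly accompanies the formation of the first epithelium of the embryo. LIF holds these cells undifferentiated through STAT3.

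Promoters were available in RefSeq tables of build GRCm38.p6 for 36 of the 50 members, as 40 windows from 250 bases before to 50 after a transcript start. Col4a1 and Col4a2 are shown because they are transcribed away from each other from start sites so close that their windows overlap, and because both were higher on first than on second arrays. The Col4a1 window is chr8:11312777-11313076 on the minus strand and that of Col4a2 is chr8:11312555-11312854 on the plus strand. Capitals mark the 78 bases, chr8:11312777-11312854, that lie in both windows. Both sequences run 5′ to 3′ on the strand of their own gene, so the capitals of one are the reverse complement of the other.
Col4a1: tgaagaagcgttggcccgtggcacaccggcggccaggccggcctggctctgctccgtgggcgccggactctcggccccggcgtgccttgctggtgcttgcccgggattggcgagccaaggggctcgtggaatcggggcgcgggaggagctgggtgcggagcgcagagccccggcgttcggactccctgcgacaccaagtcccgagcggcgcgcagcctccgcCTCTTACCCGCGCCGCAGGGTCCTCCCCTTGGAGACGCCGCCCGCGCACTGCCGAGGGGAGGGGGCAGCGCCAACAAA
Col4a2: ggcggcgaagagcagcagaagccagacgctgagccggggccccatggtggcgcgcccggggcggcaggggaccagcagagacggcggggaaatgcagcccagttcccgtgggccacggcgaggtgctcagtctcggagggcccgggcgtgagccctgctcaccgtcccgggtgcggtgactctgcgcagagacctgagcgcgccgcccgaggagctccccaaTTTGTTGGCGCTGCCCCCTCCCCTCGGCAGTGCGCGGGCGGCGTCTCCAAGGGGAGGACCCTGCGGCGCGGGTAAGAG
Col4a6, on the minus strand of chromosome X, and Col4a5, on the plus strand, are arranged the same way, with 842 bases between their windows.

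The Col1a2 window is shown because type I collagen signals differed widely between first and second arrays of J1 cells. It is chr6:4505368-4505667 on the plus strand, and its capitals mark matches to the motif CCAAT, read ATTGG on the opposite strand, and to the motif GGGCGG, read CCGCCC there.
Col1a2: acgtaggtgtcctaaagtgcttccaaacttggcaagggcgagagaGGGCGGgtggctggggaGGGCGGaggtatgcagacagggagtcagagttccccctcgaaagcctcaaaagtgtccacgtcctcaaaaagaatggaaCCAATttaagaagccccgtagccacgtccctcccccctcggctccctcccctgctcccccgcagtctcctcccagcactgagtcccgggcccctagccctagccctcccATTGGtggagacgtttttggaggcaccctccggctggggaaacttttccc
The window held 2 matches to CCAAT, 2 to GGGCGG and 0 to TATAAA. The Col4a1 window held 1, 1 and 0 such matches, and the Col4a2 window held 1, 3 and 0. GGGCGG, on either strand, was in 65.0% of the 40 member windows and in 35.7% of all 32851 windows. CCAAT was in 32.5% of member windows and 37.4% of all, and TATAAA, or TTTATA on the opposite strand, in 5.0% and 13.6%. All windows include those of genes below the floor that chose the members, so these shares do not compare genes of like signal. Some members have several windows. No sequence of one motif contains that of another, and a match describes letters in the window only.

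The values are linear probe set intensities taken to log2, and 1 log2 unit is a 2-fold difference. Levels of different genes come from different probes, so their order describes signals, not amounts of RNA. The embryonic stem cell markers stood at a list mean of 13.08 to 13.48 on every array. Zfp42, the targeted gene, was 0.21 lower on the log2 scale (SE 0.16) in the arrays labelled knockout and was not called. Where its probe set lies relative to the deletion is not stated, so directions refer to labels. The second knockout-labelled array with LIF stood apart, with 91.2% of probe sets at a log2 of at least 4 against 85.2% to 87.4% on the other 7 arrays. It gave the highest value for 14 of 50 members (28.0%), against 21.8% of all 13429 genes. Replicate arrays of a group differed by a median of 0.64 for members at a mean log2 of 6 to 8, against 0.48 for all probe sets there. At 8 to 10 the medians were 0.32 and 0.27, and at 10 or above 0.25 and 0.20.

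Of the 50 members, 18 had a mean log2 signal of at least 8 and 6 of at least 10, with a median of 7.44. The members at 10 or above were Itga6, which encodes the alpha subunit of laminin receptors, at 11.44, and Itgb1, the beta subunit shared by most matrix-binding integrins, at 11.35. They were followed by Col18a1 at 11.18, Lamb1 at 10.34, Lamc1 at 10.22 and Itgav at 10.14. Collagen probe sets were mostly lower, with 5 of 29 at 8 or above, against 4 of 6 laminins, 6 of 11 integrin alpha and 3 of 4 integrin beta genes.

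**Figure D1:**
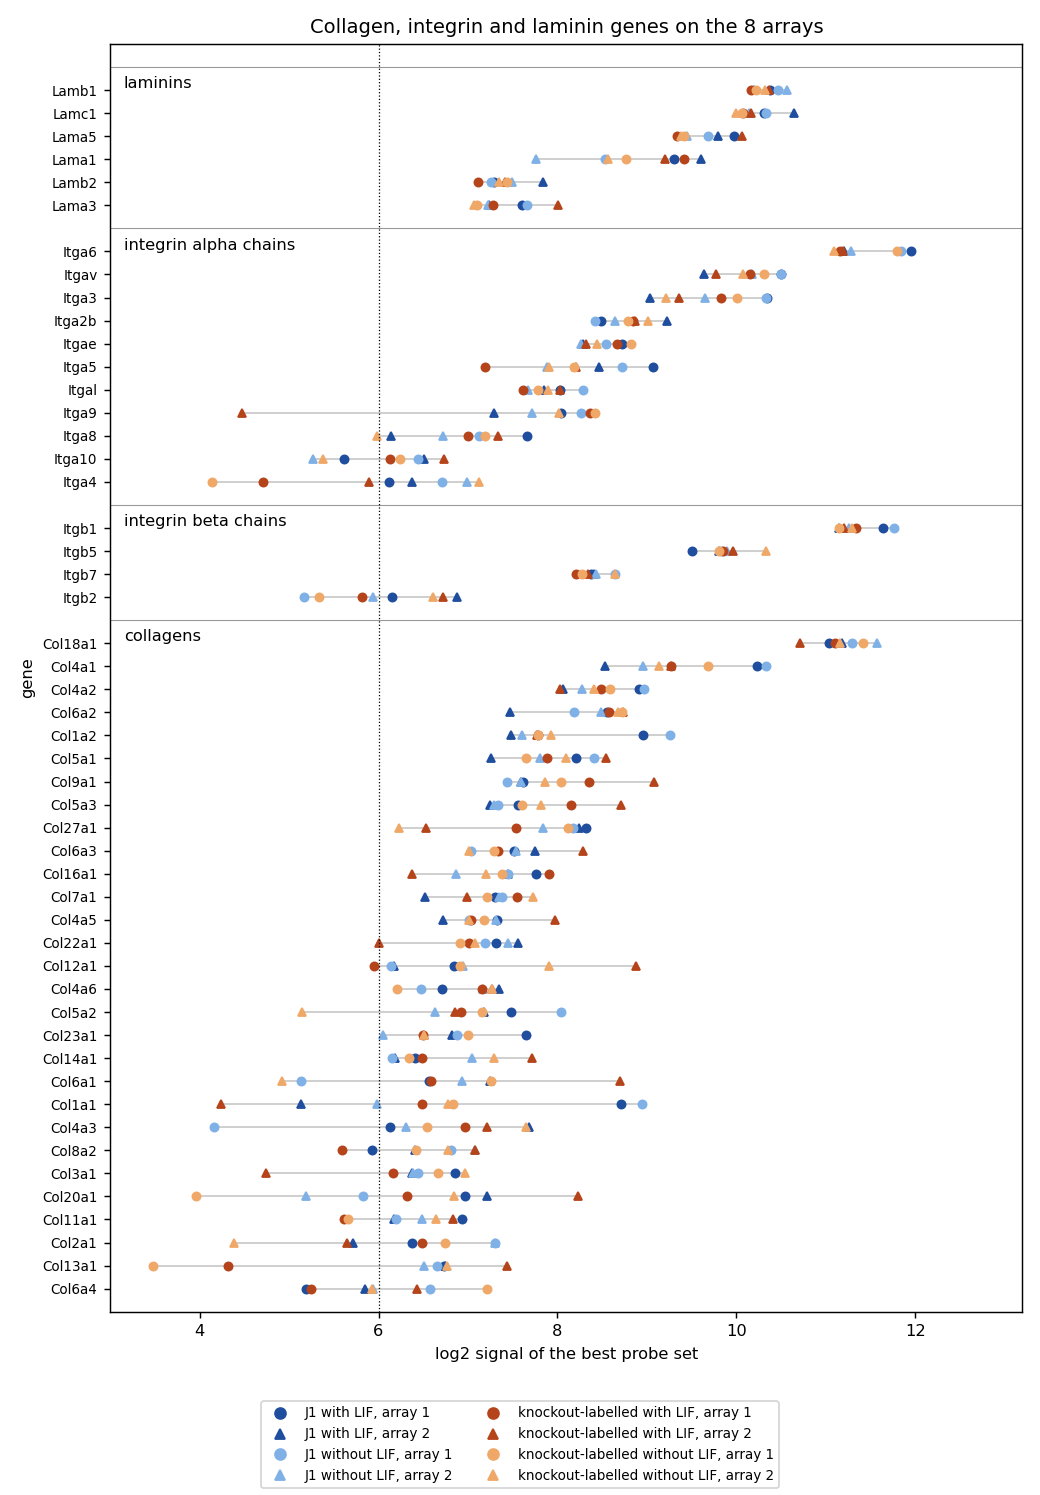
log2 signal (horizontal axis) of the best probe set of each of the 50 genes (rows, grouped by class) on the 8 arrays; circles are first and triangles second arrays, colours are the groups and the dotted line marks the floor of 6. The span of the 8 arrays runs from 0.40 (Lamb1) to 1.85 (Lama1) among the laminins and from 0.86 (Col18a1) to 4.71 (Col1a1) among the collagens.

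Values on the 8 arrays are given below as pairs of first and second array, in the order J1 with LIF, J1 without LIF, knockout-labelled with LIF and knockout-labelled without LIF. Differences and standard errors (SE) are log2 values from limma, fitted over all 43439 probe sets that passed the filter on low values, and all 50 members passed it. A gene is called where its Benjamini-Hochberg adjusted p over all those probe sets is under 0.05.

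Among the laminins, the difference between LIF states of largest size was that of Lama1, the alpha chain of the laminin first laid down in the early embryo. Its log2 signals were 9.31 and 9.61, 8.53 and 7.76, 9.41 and 9.21, and 8.77 and 8.56. All 4 arrays without LIF lay below all 4 with LIF, in both lines. Averaged over the lines, Lama1 was 0.98 lower without LIF (-0.98, SE 0.23), which is 1.97-fold. limma gave an unadjusted p of 0.0067 and an adjusted p of 0.984, so the difference was not called. It was -1.31 in J1 cells and -0.64 in knockout-labelled cells. The difference between those values was 0.67 (SE 0.47) and was not called either. Left out in turn, the arrays moved the averaged value between -1.17 and -0.78. Lama1 is represented by 1 probe set, and less RNA per cell cannot be told apart from fewer cells with the RNA.

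The other laminin chains had smaller differences between LIF states. Lama5, the alpha chain of the other main basement membrane laminin of the early embryo, had signals of 9.97 and 9.80, 9.69 and 9.45, 9.34 and 10.07, and 9.41 and 9.39. Its averaged value without LIF was -0.31 (SE 0.22). The first knockout-labelled array with LIF, at 9.34, was below all 4 arrays without LIF, so the LIF states overlap. Lamb1, the beta chain found in both of those laminins, had 10.37 and 10.20, 10.47 and 10.57, 10.17 and 10.37, and 10.22 and 10.32. Lamc1, the gamma chain shared by most laminins, had 10.31 and 10.64, 10.33 and 10.15, 10.08 and 10.17, and 10.07 and 10.00. These partner chains of Lama1 kept within narrow ranges, with averaged LIF values of 0.12 (SE 0.16) for Lamb1 and -0.16 (SE 0.17) for Lamc1. Lamb2, the alternative beta chain, had 7.30 and 7.84, 7.25 and 7.49, 7.12 and 7.41, and 7.44 and 7.34. Lama3, the alpha chain of epidermal laminin, which is given to complete the 6 laminins, had 7.60 and 7.23, 7.66 and 7.22, 7.28 and 8.01, and 7.10 and 7.06. Neither separated the LIF states. By best probe set, Lamc1 was the laminin of largest genotype difference, -0.28 (SE 0.17, adjusted p = 0.985). Its lowest J1 array was at 10.15 and its highest knockout-labelled array at 10.17. A dimmer Lamc1 probe set gave -0.36. Dimmer Lamb1 probe sets, at means of 9.66 and 8.66, gave larger values of -0.55 and -0.63. A second Lama3 probe set, at a mean of 6.04, gave 0.73.

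**Figure D2:**
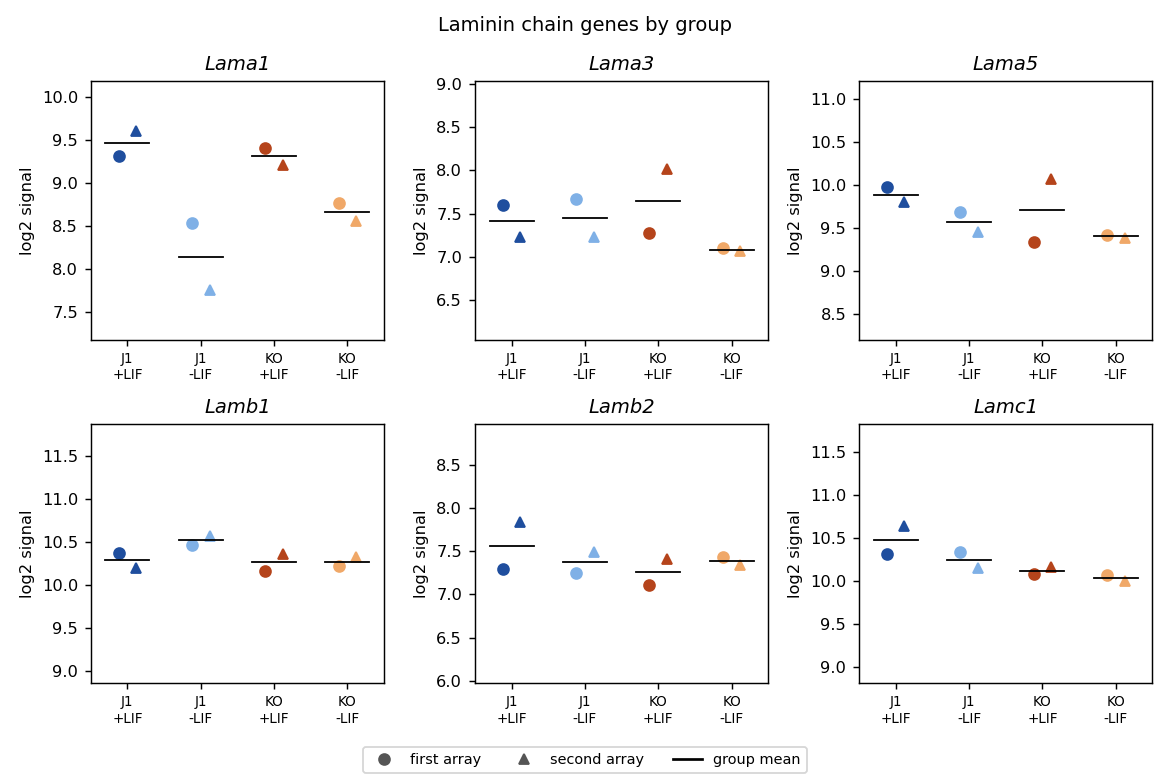
log2 signal (vertical axis, each panel spanning the same number of units) of the 6 laminin genes in the 4 groups; circles are first arrays, triangles second arrays and bars group means of 2 arrays. Lama1 is lower on all 4 arrays without LIF, while the other 5 genes have overlapping LIF states.

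LIF withdrawal called no member and no probe set in any form of the comparison. In J1 cells 0 of 50 members were called, against 0.0% of 43439 probe sets, and 1 member had an unadjusted p under 0.05 against 1.11% of genes. In knockout-labelled cells 0 were called, against 0.0%, and 3 had such a p against 1.79%. Over both lines 0 were called, against 0.0%, and 1 had such a p against 1.64%. The 26 members with higher and 24 with lower values without LIF had a median difference of 0.01, beside 0.01 over all genes. Lama1 was the only member whose LIF states did not overlap, 1 of 50 below against 1.27% of all genes and 0 above against 1.05%.

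Averaged LIF values of larger size than that of Lama1, all with larger errors, belonged to 3 collagens and 1 integrin. Col20a1, a collagen that associates with fibrils, had 6.96 and 7.22, 5.83 and 5.18, 6.32 and 8.23, and 3.96 and 6.85. Its value without LIF was -1.73 (SE 0.76), with both J1 arrays without LIF low and the knockout-labelled replicates 1.91 and 2.89 apart. Its 3 other probe sets, all under a mean of 6, gave 0.48, -0.72 and -0.50. Col6a1, a chain of the microfibrillar type VI collagen, had 6.57 and 7.25, 5.13 and 6.93, 6.59 and 8.70, and 7.26 and 4.93, a value of -1.22 (SE 0.79). Itga9, an integrin alpha chain that binds tenascin C, had 8.04 and 7.30, 8.26 and 7.72, 8.36 and 4.47, and 8.42 and 8.02. Its value of 1.06 (SE 0.86) rests on the second knockout-labelled array with LIF, at 4.47 against 7.30 or above elsewhere, and a second Itga9 probe set gave 0.11. Col1a1, described with the first and second arrays, had 0.99 (SE 1.09). None of these was called.

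**Figure D3:**
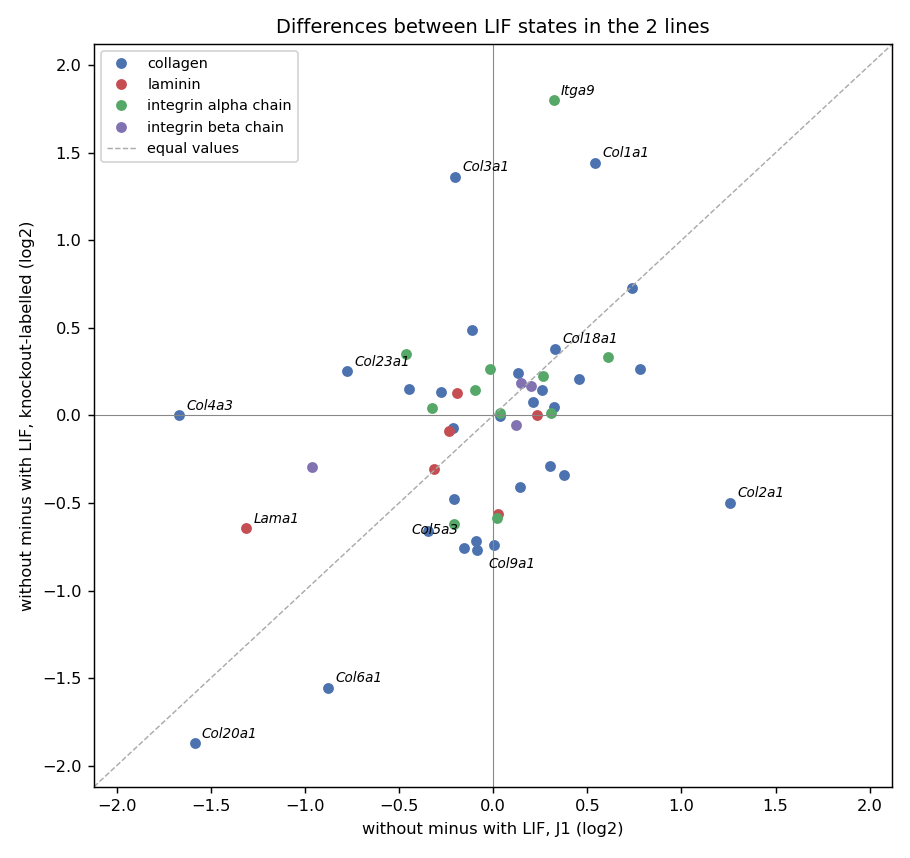
Difference without minus with LIF in J1 cells (horizontal, log2) against the same in knockout-labelled cells (vertical, log2), 1 point per gene, coloured by class; the dashed line marks equal values. Lama1, Col20a1 and Col6a1 lie below 0 in both lines, while Itga9 (0.32 and 1.80) and Col2a1 (1.26 and -0.50) lie far from the line.

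No member was called for a LIF difference that itself differed between the lines, against 0.0% of probe sets, and 0 members had an unadjusted p under 0.05 against 1.08% of genes. The largest such differences were -1.76 (SE 1.12) for Col2a1, the main collagen of cartilage, and 1.67 (SE 1.25) for Col4a3, a type IV chain of specialised basement membranes. Col2a1 had 6.37 and 5.72, 7.30 and 7.30, 6.48 and 5.65, and 6.75 and 4.39. Without the low second knockout-labelled array without LIF, at 4.39, the group means gave -0.58 in place of -1.76. Col4a3 had 6.13 and 7.68, 4.16 and 6.31, 6.97 and 7.22, and 6.54 and 7.65. Col3a1, the type III fibrillar collagen, had 6.85 and 6.38, 6.45 and 6.38, 6.16 and 4.74, and 6.66 and 6.97, with a difference between lines of 1.56 (SE 0.70). The second knockout-labelled array with LIF was the lowest for Col3a1.

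Knockout-labelled and J1 arrays were compared in each LIF state and over both. With LIF 0 of 50 members were called, against 0.0% of probe sets, and 2 had an unadjusted p under 0.05 against 2.49% of genes. Without LIF 0 were called, against 0.0%, and 0 had such a p against 1.53%. Over both states 0 were called, against 0.0%, and 2 had such a p against 3.25%. The median over members was -0.13, with 20 higher and 30 lower in knockout-labelled arrays, against 0.00 over all genes. Groups did not overlap for 3 members above J1 against 2.44% of genes, and for 1 below against 2.25%.

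The members above J1 on all 4 arrays were 3 collagens, named after their values were seen. Col9a1, a chain of the fibril-associated type IX collagen of cartilage, had 7.61 and 7.59, 7.44 and 7.60, 8.36 and 9.08, and 8.04 and 7.86. Its J1 arrays lay within 0.17 of each other and every knockout-labelled array was above them. The averaged value was 0.77 (SE 0.21, adjusted p = 0.871), at 1.11 with LIF and 0.43 without, and a dimmer Col9a1 probe set gave 0.29. Col5a3, a chain of the type V collagen that regulates fibril diameter, had 7.56 and 7.25, 7.33 and 7.29, 8.15 and 8.71, and 7.61 and 7.81. Its value was 0.71 (SE 0.20, adjusted p = 0.871), and the first J1 array with LIF came within 0.05 of the lowest knockout-labelled array. A second Col5a3 probe set, at a mean of 3.44, gave -0.01. For both genes the highest value was on the second knockout-labelled array with LIF, the one that stood apart. Without that array the averaged values were 0.59 for Col9a1 and 0.57 for Col5a3. Col6a2, a second chain of type VI collagen, had 8.56 and 7.47, 8.19 and 8.48, 8.58 and 8.73, and 8.72 and 8.68. Its value was 0.50 (SE 0.28), with only 0.02 between the groups, and a dimmer probe set gave -0.34.

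Col22a1, a collagen of tissue junctions, was the member below J1 on all 4 knockout-labelled arrays, also named after its values were seen. It had 7.31 and 7.56, 7.19 and 7.45, 7.01 and 6.01, and 6.91 and 7.08. The value was -0.62 (SE 0.27, adjusted p = 0.965), and its lowest array was again the second knockout-labelled one with LIF. The other 2 probe sets of Col22a1, both under a mean of 6, gave -0.84 and -0.06.

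The largest averaged genotype values belonged to other genes, whose groups overlapped. Col13a1, a collagen that spans the cell membrane, had 6.73 and 6.74, 6.65 and 6.51, 4.32 and 7.44, and 3.48 and 6.77, a value of -1.16 (SE 0.96). Both first knockout-labelled arrays were low and both second ones were not. Itga4, an alpha chain that binds fibronectin and the vascular adhesion molecule VCAM1, had 6.12 and 6.37, 6.71 and 6.99, 4.70 and 5.89, and 4.13 and 7.12, a value of -1.09 (SE 0.69). It was lowest on the same 2 first arrays. Col27a1, a fibrillar collagen of developing cartilage, had 8.32 and 8.25, 8.17 and 7.84, 7.54 and 6.53, and 8.12 and 6.23, a value of -1.04 (SE 0.48). Here the second knockout-labelled arrays were the lowest, and 1 of the first, at 8.12, lay within the J1 range. A second Col27a1 probe set, at a mean of 6.78, gave 0.26, the opposite sign.

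Among the integrins, the brightest subunits, Itga6 and Itgb1, differed little between lines or LIF states by best probe set. Itga6 had 11.95 and 11.20, 11.84 and 11.28, 11.17 and 11.19, and 11.80 and 11.09, with a genotype value of -0.26 (SE 0.29), and a second probe set gave -0.26. Itgb1 had 11.64 and 11.15, 11.77 and 11.26, 11.34 and 11.20, and 11.14 and 11.29, a value of -0.21 (SE 0.21). Dimmer Itgb1 probe sets above the floor, at means of 11.14 and 7.38, gave -0.07 and 0.36. For both genes the first J1 arrays were the highest of the J1 arrays. Itga3, whose signals are given with the first and second arrays, had a genotype value of -0.24 (SE 0.39). Dimmer Itga3 probe sets, at means of 8.09 and 6.71, gave larger values of -0.66 and -1.56. Itga5, the fibronectin receptor subunit, had 9.07 and 8.46, 8.72 and 7.88, 7.19 and 8.21, and 8.18 and 7.91, a value of -0.66 (SE 0.34, adjusted p = 0.985). Its J1 and knockout-labelled arrays overlapped between 7.88 and 8.21, and 2 dimmer probe sets above the floor gave -0.44 and 0.21. Itgav, the subunit of vitronectin receptors, had 10.51 and 9.64, 10.50 and 10.18, 10.15 and 9.78, and 10.31 and 10.07. Itgb5, which pairs with Itgav, had 9.51 and 9.81, 9.83 and 9.90, 9.85 and 9.97, and 9.81 and 10.33, a genotype value of 0.23 (SE 0.19). Neither partner separated the lines.

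Integrins typical of blood cells also gave signals above the floor. Itga2b, the platelet fibrinogen receptor subunit, had 8.49 and 9.23, 8.43 and 8.64, 8.85 and 8.87, and 8.79 and 9.01. Itgb7, a lymphocyte homing subunit, had 8.37 and 8.41, 8.64 and 8.43, 8.21 and 8.34, and 8.28 and 8.65. Itgb2, the beta subunit of leukocyte integrins, had 6.15 and 6.87, 5.16 and 5.94, 5.81 and 6.72, and 5.33 and 6.61. In Itgb2 the second array was higher in every group, with a second minus first value of 0.92 (SE 0.16, adjusted p = 0.294). The 7 markers of endothelium and blood, none of them a member, had list means of 6.52 to 7.14, and their part in these signals was not tested.

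The first and second arrays of a group, which differ by the letter r, were compared next. With group and letter as terms in limma, 0 of 50 members were called, against 0.0% of probe sets, and 8 (16.0%) had an unadjusted p under 0.05 against 13.8% of genes. On all 4 second arrays 5 members lay below all first arrays, against 8.56% of genes, and 1 lay above, against 8.19%. The member shares with such a p and lying below are near those of all genes, while the share lying above is smaller. The 5 were Col4a1, Col4a2, Itga3, Itgae and Itga9, and the other was Col4a6.

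The type IV collagen pair with overlapping promoters, which forms the network of every basement membrane, showed this plainly. Col4a1 had 10.24 and 8.53, 10.33 and 8.95, 9.27 and 9.27, and 9.69 and 9.14. Col4a2 had 8.92 and 8.06, 8.97 and 8.28, 8.49 and 8.03, and 8.59 and 8.41. The first arrays were above the second for both genes, and most of all in J1 cells. For Col4a1 the lowest first array, at 9.269, barely exceeded the highest second array, at 9.266, both in knockout-labelled cells with LIF. For Col4a2 these values were 8.49 and 8.41. The second minus first value was -0.91 (SE 0.34) for Col4a1 and -0.55 (SE 0.17, adjusted p = 0.308) for Col4a2. Their genotype values were -0.17 (SE 0.50) and -0.18 (SE 0.29). In first arrays alone the Col4a1 difference, knockout minus J1, was -0.81, and in second arrays alone 0.46, so its sign depends on which arrays are set against each other.

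The other type IV chains went another way. Col4a6 had 6.71 and 7.35, 6.48 and 7.17, 7.16 and 7.27, and 6.21 and 7.27, higher on every second array, with a second minus first value of 0.63 (SE 0.20, adjusted p = 0.317). Col4a5, its neighbour on chromosome X, had 7.33 and 6.72, 7.01 and 7.32, 7.04 and 7.97, and 7.18 and 7.01, with no such order. Col4a3 had a second minus first value of 1.26 (SE 0.35, adjusted p = 0.295) and was higher on the second array of each group.

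Col1a1, of the type I collagen of connective tissue, had the largest second minus first value of the 50 members. Col1a1 had 8.71 and 5.14, 8.95 and 5.98, 6.48 and 4.24, and 6.83 and 6.77, a second minus first value of -2.21 (SE 0.64, adjusted p = 0.299). Col1a2, named after its values were seen, had 8.96 and 7.48, 9.26 and 7.60, 7.78 and 7.77, and 7.78 and 7.93. Both genes were high on the first J1 arrays and lower on the other 6. The Col1a1 difference between knockout-labelled and J1 cells was -2.17 in first arrays and -0.05 in second arrays, with -1.11 (SE 1.09) over both.

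Fibroblast markers did not all follow the type I collagen genes. Over the 8 markers of that list that are not members, the list mean was 7.52 and 6.31, 7.72 and 5.95, 7.25 and 6.62, and 6.78 and 6.40, and 4 of the 8 averaged at least 6. On second arrays 5 of the 8 were lower and 3 (Thy1, Lum and Dcn) higher, and Tagln and Acta2, with second minus first values of -4.36 and -1.42, were the brightest of those lower. Tagln, a smooth muscle and myofibroblast actin-binding protein, had 12.24 and 7.47, 12.12 and 6.32, 9.26 and 6.75, and 9.45 and 5.09. Acta2, smooth muscle actin, had 12.16 and 9.93, 12.24 and 9.46, 10.40 and 10.18, and 10.49 and 10.03. Both were highest on the first J1 arrays. Of the other markers of the list, Postn, Lum, Dcn and Twist2 averaged under 6, and Thy1 (7.46) and Pdgfrb (6.05) above it. The part of such cells in the collagen values was not tested.

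The integrin genes were divided between first and second arrays. Itga3, an alpha chain of laminin receptors, had 10.35 and 9.03, 10.34 and 9.65, 9.83 and 9.36, and 10.00 and 9.21, a second minus first value of -0.81 (SE 0.19, adjusted p = 0.294). The lowest first array, at 9.83, was above the highest second array, at 9.65. Itgae, which binds E-cadherin and was named after its values were seen, had a value of -0.37 (SE 0.12, adjusted p = 0.326). Of the 11 integrin alpha genes, 9 were lower on second arrays, with a median of -0.37. Itga4, at 1.18, and Itga2b, at 0.30, were higher on second arrays, as were 3 of the 4 integrin beta genes, with a median of 0.17.

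**Figure D4:**
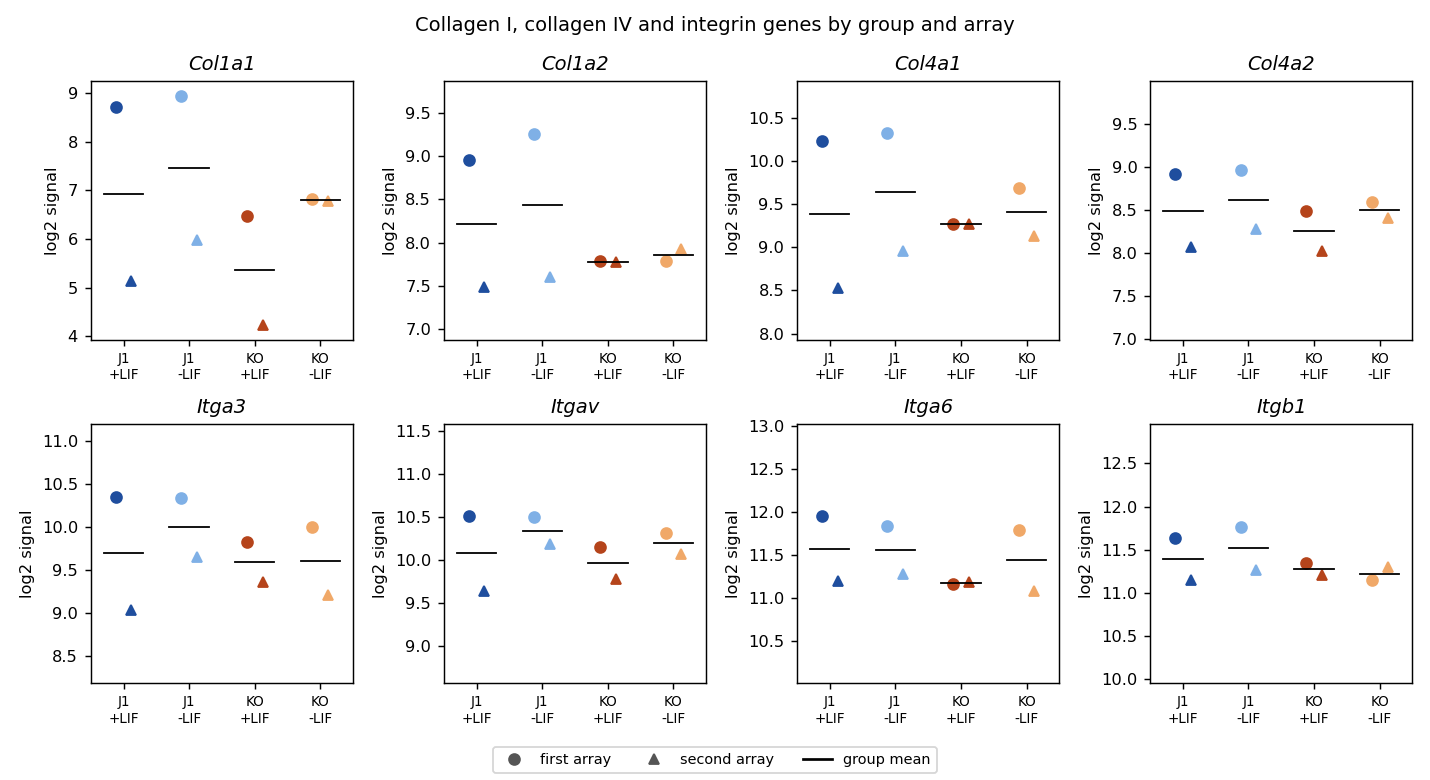
log2 signal (vertical axis) of 8 collagen and integrin genes in the 4 groups; circles are first arrays, triangles second arrays and bars group means of 2 arrays. The first J1 arrays lie above the second for all 8 genes, by 3.57 for Col1a1 with LIF and 0.49 for Itgb1 with LIF.

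The genotype comparison was therefore also made within first and within second arrays, a choice made after the data were seen, with 1 array per group and no test. In first arrays 19 members were higher and 31 lower in knockout-labelled cells, with a median of -0.24. In second arrays 33 were higher and 17 lower, with a median of 0.09. Collagens had medians of -0.22 and 0.29 and integrin alpha genes -0.30 and 0.00. The sign of the median thus turned with the arrays used. Lama1 (0.17 and 0.20), Col9a1 (0.67 and 0.87), Col5a3 (0.43 and 0.99) and Lamc1 (-0.25 and -0.31) kept their signs, whereas Col13a1 (-2.80 and 0.48) and Col20a1 (-1.26 and 1.34) did not.

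**Figure D5:**
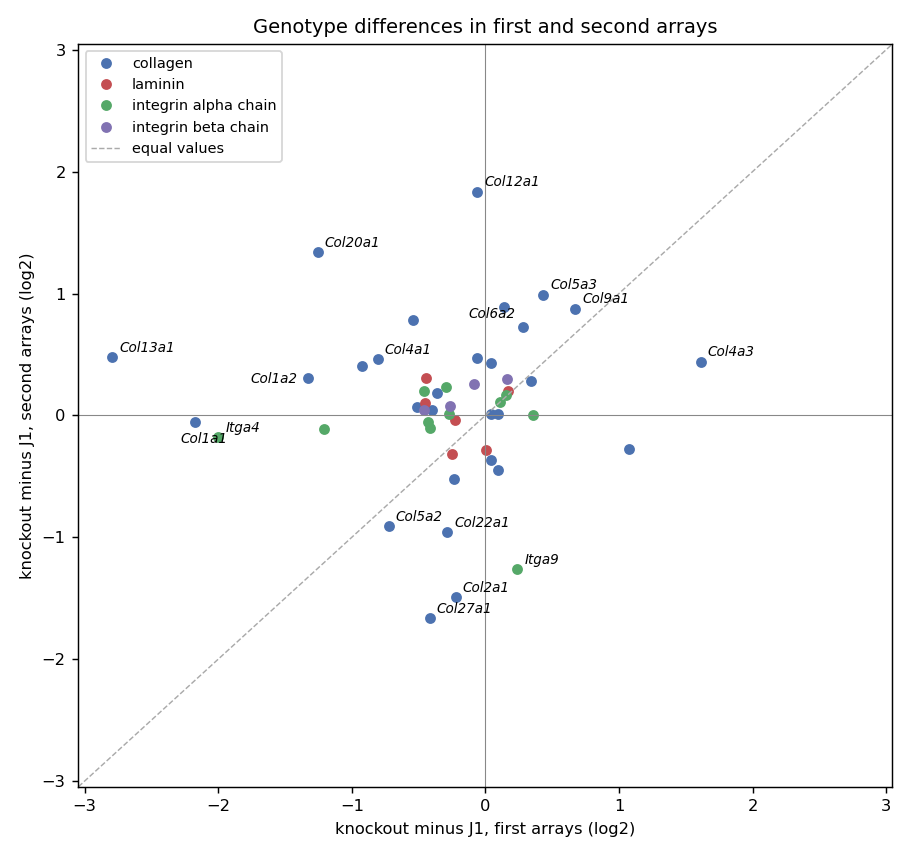
Knockout minus J1 difference in first arrays (horizontal, log2) against second arrays (vertical, log2), each averaged over LIF states, 1 point per gene coloured by class; the dashed line marks equal values. Many collagens lie left of 0 and above 0, such as Col13a1 (-2.80 and 0.48), while Col9a1 and Col5a3 are above 0 on both axes.

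Among the remaining members, Col18a1, whose protein is the source of endostatin, had 11.03 and 11.18, 11.30 and 11.57, 11.10 and 10.71, and 11.42 and 11.16. It was 0.35 higher without LIF (SE 0.19), with overlapping groups. The 15 members given without values on each array had mean log2 signals from 6.04 to 8.51. Their averaged genotype values ran from -0.82 to 0.89 (8 higher, 7 lower, smallest adjusted p 0.985) and their LIF values from -0.50 to 0.73 (8 higher, 7 lower). Of 20 members with at least 2 probe sets at a mean of 6 or above, 11 had genotype values of 1 sign on all of them, and 11 had LIF values of 1 sign.

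Genes that work with these proteins were read from 4 lists, none of whose genes was called in the averaged genotype or LIF comparison. Of 22 measured matrix glycoproteins, 10 were higher and 12 lower in knockout-labelled arrays (median -0.08), and 10 and 12 without LIF (median -0.05). Fn1, which encodes fibronectin, the main ligand of the Itga5 receptor, had 11.85 and 12.15, 12.07 and 12.10, 11.45 and 11.59, and 11.56 and 11.73. All 4 knockout-labelled arrays lay below the J1 arrays, as for 2.25% of genes above the floor, with a value of -0.46 (SE 0.16, adjusted p = 0.917). In the integrin adhesion list Rsu1 and Crk also lay below on all 4, and Tln2 lay above, as for 2.44% of genes. These adhesion genes were named after their values were seen. Sparc, a collagen-binding protein of basement membranes, had 12.55 and 11.58, 12.36 and 11.48, 12.00 and 12.19, and 12.02 and 12.12, and first arrays were the higher ones in J1 cells only. The largest genotype values of the list were -1.36 (SE 0.74) for Efemp1, an extracellular glycoprotein, and -1.24 (SE 0.95) for Frem1, of the basement membrane, both at mean signals under 6.

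Of 22 collagen processing genes, which hydroxylate, fold, cross-link or trim collagen chains, 11 were higher and 11 lower in knockout-labelled arrays (median -0.02), and 9 were higher and 13 lower without LIF (median -0.03). P4hb and Ppib, a subunit of collagen prolyl hydroxylase and a proline isomerase, were the brightest of them, with genotype values of -0.06 (SE 0.15) and 0.01 (SE 0.19). P4ha3, another hydroxylase subunit, and Adamts3, a procollagen peptidase, had the largest, -1.06 (SE 0.60) and 0.89 (SE 0.55), at mean signals under 6. On second arrays 11 of the 22 were lower, with a median of -0.03. Serpinh1, of the same list and named after its values were seen, was high on the first J1 arrays, as Col1a1 and Col1a2 were. It had 11.05 and 9.12, 10.82 and 9.22, 9.88 and 9.37, and 9.66 and 9.55, a second minus first value of -1.04. Of 26 genes of the integrin adhesion machinery, which couples integrins to actin, 10 were higher and 16 lower in knockout-labelled arrays (median -0.06), and 11 and 15 without LIF (median -0.05). In that list 20 of 26 were lower on second arrays, with a median of -0.34. Its brightest genes, Actn4 (an actin cross-linker) and Tns3 (a tensin), had genotype values of 0.07 (SE 0.16) and -0.24 (SE 0.37). Parva and Lims2, partners of integrin-linked kinase, had the largest, -1.67 (SE 0.97) and 0.50 (SE 0.56). Of 15 matrix proteases and inhibitors, 3 were higher and 12 lower in knockout-labelled arrays (median -0.10), and 5 and 10 without LIF (median -0.08). In first and second arrays alone, the genotype medians of these proteases and inhibitors were -0.36 and 0.23. Those of adhesion genes were -0.17 and 0.06, of collagen processing genes -0.07 and 0.15, and of matrix glycoproteins -0.25 and -0.01. Only the last kept its sign. Timp1, an inhibitor of matrix metalloproteinases, had 10.50 and 10.46, 10.30 and 10.09, 10.38 and 10.02, and 9.70 and 9.68, a genotype value of -0.39 (SE 0.17, adjusted p = 0.965). Its lowest arrays were those of knockout-labelled cells without LIF. The proteases Adam10 and Adamts5 had -0.01 (SE 0.19) and -0.71 (SE 0.52). The 14 markers of extraembryonic endoderm, cells that secrete much laminin and type IV collagen, had list means of 6.20 to 6.85, highest on the 2 second knockout-labelled arrays. Their genotype values had a median of 0.22 with 10 higher and 4 lower, none called. In first arrays alone the median was -0.04 and in second arrays 0.58. Sox17 (0.84, SE 0.19, adjusted p = 0.754) and Cubn (0.33, SE 0.17) lay above J1 on all 4 knockout-labelled arrays, as for 2.44% of genes. Both were named after their values were seen. The part of these markers in the member values was not tested.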

How the data were processed

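RNA of 8 cultures was hybridised to single-colour Affymetrix arrays. The deposited table holds linear signal intensity per probe set, and the submitters' processing notes name GCRMA without version or role. Every deposited column has a mean of 500 once its extreme 2% of values at each end are left out. The step that made the values, and the aligner or probe mapping, are not given in the sources used here. Of 45101 probe sets, 64 controls were left out. In the platform annotation 34945 had 1 symbol, 932 several and 9160 none, and only those with 1 symbol were named.

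Intensities were taken to log2 with no pseudocount. Probe sets with a log2 of at least 4 on at least 2 arrays (43439) were fitted with limma 3.58.1 in R 4.3.3, with 1 mean per group, eBayes without a trend and 7 contrasts. The fit was tested on simulated data. Figures used matplotlib 3.10.9 in Python 3.11.15. Members, gene lists and tests were chosen with earlier results of these data known. Named members were the 4 brightest per class and the 4 of largest genotype, LIF, interaction and second minus first values. Fixed laminin, type IV collagen and integrin subunits were named too. Other members named are said to have been chosen after their values were seen. The exceptions are Lama3, which completes the laminins, and members just above the floor.

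Whether the letter r pairs arrays was checked. Second minus first differences of 2 groups correlated at 0.0496 to 0.198 over all probe sets, with 2 of 6 correlations under 0.1, and at 0.172 to 0.656 over the members. Because the correlations over all probe sets were not all above 0.1, the fit has no block. Alternatives covered the filter, normalization, variance prior, arrays fitted, probe set per gene, floor, replicate block and each array left out. The number of arrays limits the precision.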

Additional observations from a re-analysis of the deposited data

How the results depend on the processing

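Every comparison called 0 probe sets and 0 members with no filter, a filter at a mean log2 of 6, quantile normalization, only the arrays compared, or any 1 array left out. With the trended and robust variance prior, the averaged genotype comparison called 1 probe set, which has no gene symbol here (1.39, adjusted p = 0.0471 from limma), and 0 members. With a replicate block on the letter r, 0 probe sets were called in every comparison, and 4 members in place of 2 (genotype) and 2 in place of 1 (LIF) had an unadjusted p under 0.05. The number of members not overlapping between knockout-labelled and J1 arrays, 4 in the report, was 1 with a floor of 8 and ran from 4 to 8 over the arrays left out. Leaving out the second J1 array gave 7 (with LIF) and 8 (without LIF). The number not overlapping between LIF states, 1 in the report, ran from 2 to 4 over the arrays left out, since 3 arrays are then set against 4. The medians over members moved by less than 0.24, the SD of a member median between replicate arrays. Of 35 members named with values, the sign of the genotype value turned for 14 when some array was left out, for 16 between first and second arrays, and for 1 with quantile normalization. For the LIF value the counts were 16, 8 and 0. The cause was not tested. The averaged genotype values of members had a median SE of 0.33. With 2 arrays per group, differences of that size and several times larger were not called. Background in low signals is unknown.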

Other observations

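Of the 28 collagen, laminin and integrin genes below the floor, 2 had all 4 knockout-labelled arrays above all 4 J1 arrays and 0 had them below. Among all 4403 fitted genes below the floor the shares were 1.95% and 0.999%. Itga1, the alpha subunit of a collagen receptor, was the more separated of them and was picked after its values were seen. It had log2 signals of 5.61 and 3.60 in J1 cells with LIF, 4.10 and 4.43 in J1 cells without LIF, 6.99 and 7.33 in knockout-labelled cells with LIF and 7.09 and 6.86 in knockout-labelled cells without LIF. The lowest knockout-labelled array was 1.25 log2 units above the highest J1 array. The averaged value was 2.63 (SE 0.46), with an adjusted p of 0.652 from limma over all probe sets, and it was not called. A dimmer Itga1 probe set, at a mean of 3.32, gave 0.07. The other gene was Col25a1, a collagen that spans the membrane of neurons, at a mean of 5.93. Itgb8, at a mean of 4.03, went the other way with overlapping groups, at -1.70 (SE 0.22, adjusted p = 0.563 from limma). Lamb3, at a mean of 5.94, had 2.65 with LIF and 0.40 without. Itgb8 and Lamb3 were also picked after their values were seen, and neither was called.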
